A study of Mus musculus with 16 samples.

Results

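The MOR165 receptors are a family of mouse odorant receptors, named from the similarity of their protein sequences. The 7 genes described here, Olfr907, Olfr910, Olfr912, Olfr913, Olfr914, Olfr920 and Olfr921, were found by gene symbol among 22206 tested probe sets (19505 named genes, of which 1080 are odorant receptors), and each has exactly 1 probe set. They were chosen by the family name, from a survey of these same arrays in which measured values were known. Which comparison served for the choice is not stated, so every difference of a member below is a description with its standard error, and the counts of members that passed a test are given beside those over all probe sets and support nothing. RefSeq gives a MOR165 synonym to 9 genes. The other two are Olfr908, a transcribed pseudogene that is not analysed here, and Olfr911-ps1, which has a probe set and is described separately.

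The groups, each of 4 arrays, were odor GFP+, odor GFP-, vehicle GFP+ and vehicle GFP-, all from S100a5-tauGFP mice, so every group carries the reporter. The 24 mice, of both sexes and 7 to 12 weeks of age, were kept singly for 40 h in chambers with 3.1 L per min of clean air, and from 26 h they received pulses of 10 s every 20 min of 2-hexanone (odor), a small ketone, or of filtered air (vehicle). The mucosa of 3 mice was pooled and sorted by fluorescence, so the GFP+ and GFP- samples of each of the 8 pools share their mice, and the spread between arrays is a spread between pools. The RNA (50 to 100 ng per sample) was hybridised to Clariom S mouse arrays, which read a gene with a set of probes.

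In the olfactory epithelium a mature sensory neuron settles on a single odorant receptor gene out of a large repertoire. The receptors are membrane proteins that signal through the G protein Golf and adenylyl cyclase to cyclic nucleotide-gated channels and a calcium-activated chloride channel. S100a5 encodes a calcium-binding protein that neurons of this tissue make more of when they are active, so GFP from its promoter marks neurons with recent activity. A receptor transcript is therefore also a label of the neurons that express it, and in these bulk samples a change in the number of such neurons and a change in RNA per neuron cannot be told apart. No ligand is assigned here to any member, and all 7 are described only as odorant receptors.

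Values are log2 signals as deposited. They reach 19.81, beyond what 16 bits allow, so the scale was transformed in a way that is not stated, and levels are compared between arrays and never between probe sets. A background floor was taken on each array as the highest of its 23 antigenomic control bins, and it lay between 6.16 and 7.33. The 7.33 was that of odor GFP+ replicate 1, and the next highest was 6.77. This floor is strict: array medians were 5.70 to 6.12, so most tested probe sets were under it on every array. Under background here means under this floor and not that a transcript was absent. By this floor Olfr907, Olfr913 and Olfr914 were above background on all 16 arrays and Olfr910 on 15. Olfr921 was above it on 11 arrays, Olfr920 on 8 and Olfr912 on 3, so the values of the last 3 in GFP- cells are largely bounds.

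The sort and the tissue were checked first. S100a5 read 16.92, 16.83, 16.17 and 16.98 in odor GFP+ samples, against 15.18, 15.13, 14.89 and 15.23 in odor GFP- samples, and it was higher by 1.61 ± 0.25 (SE) in odor and by 1.38 ± 0.25 in vehicle (limma, adjusted p = 9.83e-05 and 0.000514). That direction follows from a reporter driven by the same promoter. Omp, a marker of mature olfactory neurons near the top of the scale, differed by 0.09 ± 0.14 in odor and 0.01 ± 0.14 in vehicle without passing, but passed with arrays centred on their medians (0.44 and 0.37). Of 10 mature neuron markers, 9 were above background on every array in all 4 groups, and the exception, the channel subunit Cngb1, was under it on all. All 8 immune markers were lower in GFP+ cells in both treatments, with median differences of -9.10 in odor and -9.05 in vehicle, as were 5 of 6 markers of immature neurons, 4 of 5 of sustentacular cells and all 4 of microvillous cells. Of the other lists, 3 of 6 basal and progenitor, 1 of 4 Bowman gland and the 1 erythroid marker passed as lower in each treatment. No marker of any list passed limma between odor and vehicle in either fraction. Only Mki67, of the basal list, had an unadjusted p under 0.05, at -1.32 ± 0.43 (SE) in GFP+ cells. All 6 basal markers were under background on all GFP+ arrays. The mean level of the immune list ran from 5.21 to 5.63 in odor GFP+ and from 4.89 to 5.68 in vehicle GFP+ samples, where 5 and 6 of its 8 genes were under background on all arrays. In GFP- samples it ran from 13.20 to 13.82 in odor and from 12.02 to 14.33 in vehicle. The part of these other cells in the differences of the receptors between fractions was not tested.

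Olfr914 had the most uniform level in odor GFP+ samples. It read 10.95, 11.07, 11.12 and 11.10 in odor GFP+ samples, against 8.70, 7.88, 8.15 and 7.51 in odor GFP- samples. The 4 odor GFP+ arrays lay within a narrow band (SD 0.08) far above all odor GFP- arrays. In vehicle it read 9.70, 11.30, 8.44 and 10.66 in GFP+ samples, against 8.94, 7.997, 8.60 and 7.37 in GFP- samples. Here the GFP+ arrays were scattered (SD 1.24): replicate 2 lay above and replicate 4 below all odor GFP+ arrays, and replicate 3 lay among the GFP- arrays, so the vehicle groups overlapped. The difference of GFP+ minus GFP- was 3.00 ± 0.46 in odor and 1.80 ± 0.46 in vehicle (limma SE, 4 arrays per group). Unless a block is named, each SE given here comes from 1 spread per probe set shared by the 4 groups. It is therefore the same in odor and vehicle and does not show the unequal scatter of the pools. Within pools, the SD of the Olfr914 difference was 0.56 in odor and 1.77 in vehicle (n = 4 pools each).

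Olfr921 separated the fractions without overlap. It read 9.69, 8.42, 9.29 and 8.63 in odor GFP+ samples, against 5.29, 5.57, 5.54 and 6.22 in odor GFP- samples, where no array was above background. It was thus at least 4.91-fold higher in odor GFP+ than in odor GFP- samples, the bright mean being set against the floor of the dim arrays. In vehicle it read 9.79, 8.97, 8.84 and 7.54 in GFP+ samples, against 7.39, 6.16, 6.75 and 7.03 in GFP- samples, of which 3 were above background. The measured difference was 3.35 ± 0.40 in odor (2.29 with all odor GFP- arrays raised to their floor) and 1.95 ± 0.40 in vehicle, and the vehicle difference became 1.81 with the array under background raised to its floor.

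Olfr910 was high in GFP+ cells of both treatments but varied widely between pools. It read 10.64, 8.37, 10.50 and 8.24 in odor GFP+ samples, against 7.70, 4.64, 7.94 and 6.86 in odor GFP- samples, of which 3 were above background. In vehicle it read 10.77, 9.44, 9.56 and 8.66 in GFP+ samples, against 9.03, 7.55, 9.42 and 6.84 in GFP- samples. The odor groups did not overlap, with the lowest GFP+ array at 8.24 and the highest GFP- array at 7.94, while the vehicle groups overlapped. The difference was 2.65 ± 0.74 in odor (2.12 with the array under background raised to its floor) and 1.39 ± 0.74 in vehicle. These were the largest standard errors of the 7 receptors, from a fit that does not pair the fractions of a pool. With the pool as a fixed replicate block, the odor difference was 2.65 ± 0.37.

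Olfr913 and Olfr907 were above the background floor on every array, and their fractions overlapped. Olfr913 read 9.49, 10.09, 10.69 and 9.94 in odor GFP+ samples, against 8.99, 9.72, 8.83 and 8.74 in odor GFP- samples. In vehicle Olfr913 read 9.60, 9.22, 9.31 and 9.84 in GFP+ samples, against 9.41, 9.48, 8.55 and 8.16 in GFP- samples. Its groups overlapped in both treatments, and the differences were 0.99 ± 0.31 in odor and 0.59 ± 0.31 in vehicle. Olfr907 read 10.36, 9.57, 10.06 and 9.35 in odor GFP+ samples, against 8.84, 9.16, 9.49 and 7.39 in odor GFP- samples. In vehicle Olfr907 read 9.05, 8.75, 9.77 and 9.17 in GFP+ samples, against 9.67, 9.16, 8.83 and 8.13 in GFP- samples. The odor GFP+ arrays of Olfr907 overlapped the odor GFP- arrays only through odor replicate 4, at 9.35, which lay below the highest GFP- array at 9.49, while in vehicle the groups were mixed. Its differences were 1.11 ± 0.40 in odor and 0.24 ± 0.40 in vehicle.

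Olfr920 and Olfr912 were the dimmest of the family against the background floor. Olfr920 read 7.65, 6.44, 7.72 and 7.21 in odor GFP+ samples, of which 3 were above background, against 6.25, 4.54, 5.15 and 5.74 in odor GFP- samples, of which none was. It was therefore at least 1.46-fold higher in odor GFP+ samples, with the 1 GFP+ array under background counted as it read. In vehicle it read 6.71, 7.67, 7.07 and 7.25 in GFP+ samples, all above background, against 5.56, 5.84, 6.10 and 6.26 in GFP- samples, of which 1 was. The groups did not overlap in either treatment. The measured difference was 1.84 ± 0.34 in odor and 1.23 ± 0.34 in vehicle, the second falling to 0.61 with arrays raised to the floor. Olfr912 read 5.82 to 7.76 in odor GFP+ samples, against 3.72 to 5.24 in odor GFP- samples. Of its 16 arrays, 2 odor GFP+ and 1 vehicle GFP+ array were above background. The other odor GFP+ arrays and all odor GFP- arrays were under it, so no fold is given for odor. Its measured difference was 2.06 ± 0.41 in odor and 0.86 ± 0.41 in vehicle, or 0.32 and 0.11 with arrays raised to the floor. In vehicle Olfr912 read 6.06 to 7.01 in GFP+ samples, against 4.96 to 6.41 in GFP- samples, and no fold is given.

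**Figure D1:**
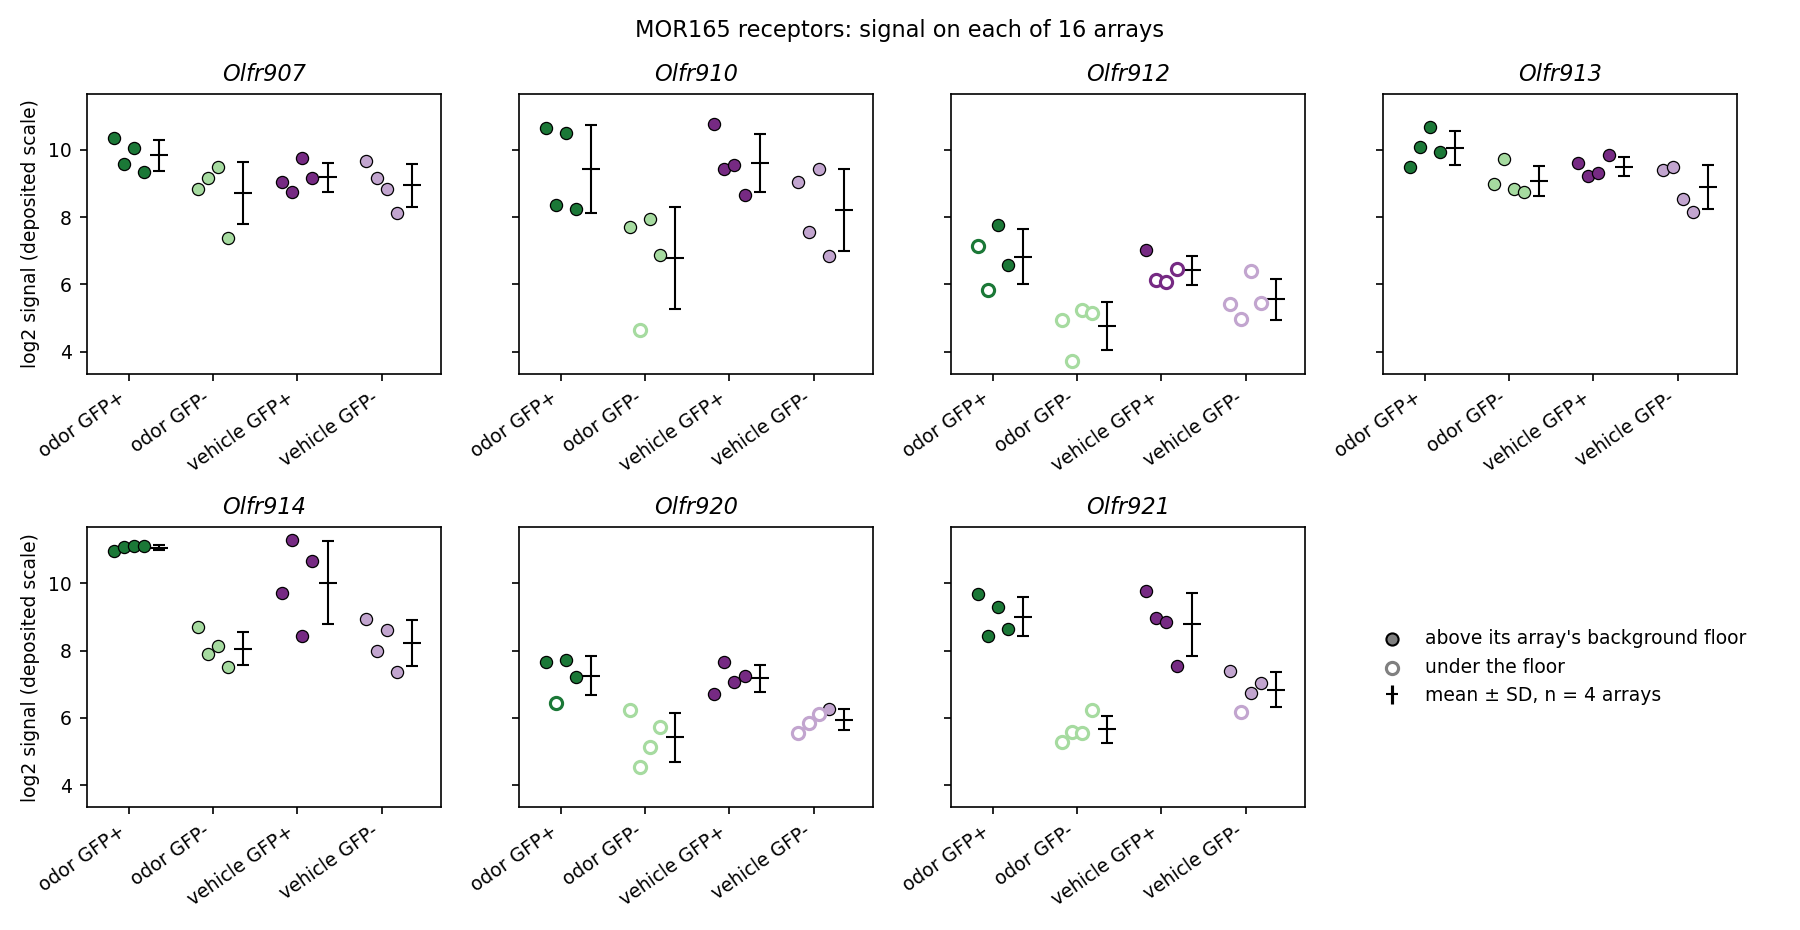
Log2 signal (vertical axis) of each of the 7 MOR165 receptors on every array, filled where above and open where under its background floor, with bars for the mean ± SD of the 4 arrays of a group, odor before vehicle and GFP+ before GFP-. The odor GFP+ points of Olfr914 lie between 10.95 and 11.12, while its vehicle GFP+ points spread from 8.44 to 11.30.

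Across the family, the mean of GFP+ samples was above that of GFP- samples for all 7 members in each treatment. That direction held for 64.6% of all probe sets in each treatment, and for 61.7% of receptors in odor and 61.2% in vehicle. The median difference of the members was 2.06 in odor and 1.23 in vehicle. With values under background raised to the floor it was 1.11 in odor and 0.61 in vehicle. The same medians were 0.14 and 0.14 over all probe sets and 0.48 and 0.41 over the 1080 receptors. In odor 6 of 7 members passed limma at an adjusted p below 0.05 as higher, where 5.29% of all probe sets did, and 5 of 7 had groups that did not overlap, against 9.4% of all probe sets. In vehicle Olfr914, Olfr920 and Olfr921 passed as higher, where 5.83% of all probe sets did, and Olfr920 and Olfr921 had groups that did not overlap, against 9.01% of all probe sets. Olfr907 was the member that did not pass in odor, and no member passed as lower in either treatment. Among all 1080 receptors, 391 passed as higher in odor and 389 in vehicle. The groups did not overlap, with GFP+ higher, for 35.4% of receptors in odor and 33.7% in vehicle, against 28.6% of members in vehicle. Since the members may have been chosen on these comparisons, nothing is read from the counts.

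These counts depended on single pools and on dim arrays. In vehicle, Olfr914 and Olfr920 were lost without replicate 2, which left Olfr921 as the 1 member called, and Olfr914 was lost without replicate 4. With values under background raised to the floor, Olfr912 and Olfr920 were lost in odor and Olfr920 in vehicle. In odor, Olfr910 was lost without odor replicate 1, and Olfr913 was lost without odor replicate 1, 3 or 4 or vehicle replicate 3. With the pool as a replicate block, fixed for each pool, Olfr907 gained the call in odor and Olfr913 lost it, and Olfr910 gained it in vehicle, so that 6 members passed in odor and 4 in vehicle. With arrays centred on their medians, the median over all probe sets moved to 0.49 in odor and 0.50 in vehicle, and 7 and 5 members passed.

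The difference between the fractions was also read within each pool, where both samples come from the same mice. In odor all 28 within-pool differences of the 7 members were positive, from 0.37 to 4.40 with a median of 2.14. In vehicle 23 of 28 were positive, from -0.61 to 3.30 with a median of 1.03. The members share their pools, so the 28 values are not replicates, and nothing is read from their number. All odor GFP- readings of Olfr912, Olfr920 and Olfr921 among them were under background, and Olfr910 was above it on 3 of 4 odor GFP- arrays. Of 4 vehicle GFP- arrays, 0 were above it for Olfr912, 1 for Olfr920 and 3 for Olfr921. Some GFP+ readings of Olfr912 and Olfr920 were under it too. The range and median in odor thus rest largely on such readings. The highest value, 4.40 for Olfr921 in odor pool 1, has a GFP- reading of 5.29 against a floor of 6.55. The share over all probe sets was not counted within pools. By group means, 64.6% of all probe sets were positive in each treatment. The 5 negative values came from Olfr907 in vehicle pools 1 and 2, Olfr912 and Olfr914 in pool 3 and Olfr913 in pool 2, so no single vehicle pool held them all. For Olfr914 the vehicle pools split, with 3.30 and 3.29 in pools 2 and 4 and 0.76 and -0.16 in pools 1 and 3, while the odor pools ran from 2.25 to 3.59. For each of the 7 members the range of the odor pools overlapped the range of the vehicle pools.

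**Figure D2:**
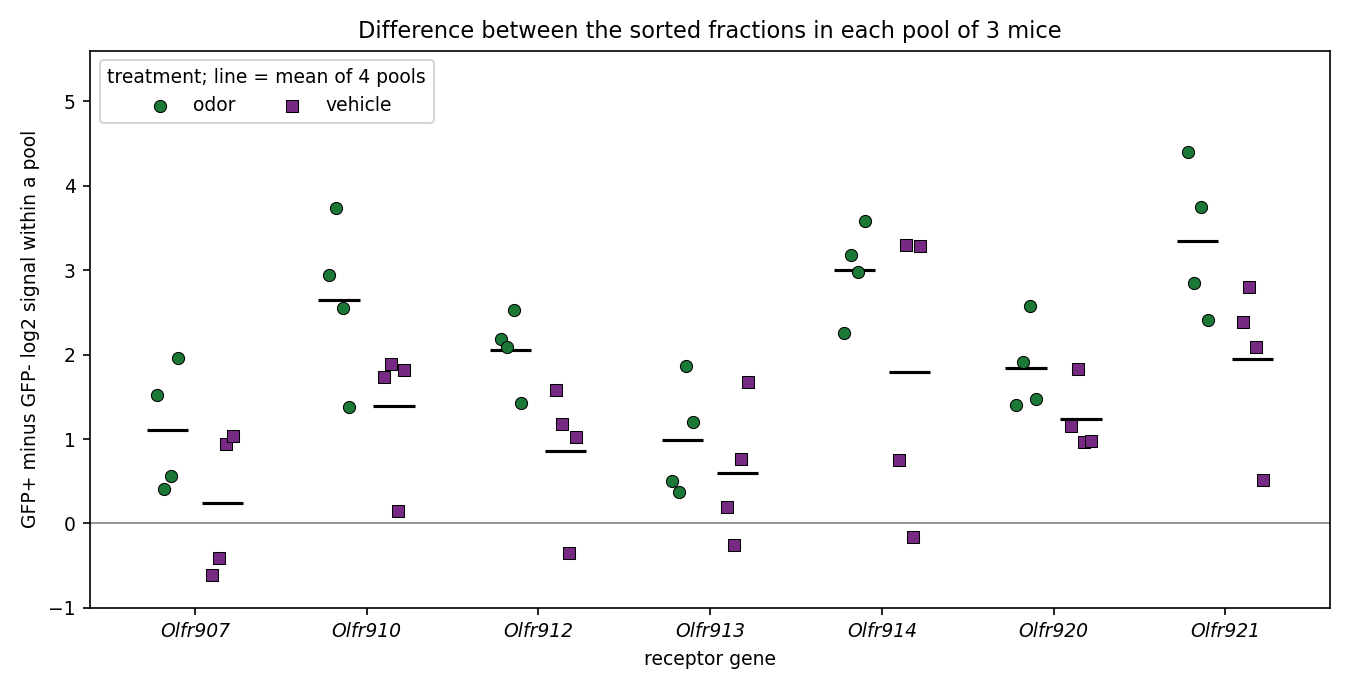
Difference of GFP+ minus GFP- log2 signal within each pool of 3 mice (vertical axis) for the 7 receptors, odor pools as circles left of vehicle pools as squares, with lines at the mean of 4 pools. All 28 odor values are above 0, 23 of 28 vehicle values are, and the odor and vehicle ranges of every receptor overlap. Values of the same pool share mice, so these counts are a description only.

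The next comparison asked whether 2-hexanone changed the receptors within a fraction. In GFP+ cells, odor minus vehicle was 1.04 ± 0.46 for Olfr914, 0.65 ± 0.40 for Olfr907, 0.56 ± 0.31 for Olfr913, 0.41 ± 0.41 for Olfr912, 0.23 ± 0.40 for Olfr921, 0.085 ± 0.34 for Olfr920 and -0.17 ± 0.74 for Olfr910 (SE, n = 4 pools each). The median of the members was 0.41, against 0.00 over all probe sets and over all receptors. No member passed limma (0.00901% of all probe sets did). Olfr914 was the 1 member with an unadjusted p under 0.05, which 869 of 22206 probe sets had. No member had groups that did not overlap, as 2.01% of all probe sets had. Olfr914 in vehicle replicate 2, at 11.30, lay above all 4 odor GFP+ arrays.

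In GFP- cells 6 of 7 values were negative as deposited, as were 11089 of 22206 probe sets and 579 of 1080 receptors. Odor minus vehicle was -1.43 ± 0.74 for Olfr910, -1.18 ± 0.40 for Olfr921, -0.79 ± 0.41 for Olfr912, -0.52 ± 0.34 for Olfr920, -0.23 ± 0.40 for Olfr907, -0.17 ± 0.46 for Olfr914 and 0.17 ± 0.31 for Olfr913. The median of the members was -0.52 (-0.17 with values under background raised to the floor), against 0.00 over all probe sets and -0.03 over all receptors. No member passed limma (0% of all probe sets did), and none had groups that did not overlap, as 1.77% of all probe sets had. Olfr921 was the 1 member with an unadjusted p under 0.05, which 547 of 22206 probe sets had. Olfr912 was under background on all GFP- arrays of both treatments and Olfr920 on all but 1, so their negative values describe readings under the floor. Raised to it, they became 0.16 and 0.15. For Olfr912 the raised value holds only the floors of the arrays, which averaged 6.71 in odor and 6.56 in vehicle GFP- samples. For Olfr920 it does so but for 1 array, so neither raised value describes the gene. For Olfr921 the odor GFP- arrays were all under background, and the value raised to the floor was -0.26. For Olfr910, with 1 odor GFP- array under background, it was -0.89.

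The change of the difference between fractions with odor asks whether odor altered the separation by the sort. As deposited it was positive for all 7 members: 1.40 ± 0.56 for Olfr921, 1.26 ± 1.05 for Olfr910, 1.20 ± 0.65 for Olfr914, 1.20 ± 0.58 for Olfr912, 0.88 ± 0.56 for Olfr907, 0.61 ± 0.48 for Olfr920 and 0.39 ± 0.44 for Olfr913 (SE). The median was 1.20, against 0.00 over all probe sets and 0.03 over all receptors. Positive were 11156 of 22206 probe sets and 564 of 1080 receptors. No member passed limma (0.00901% of all probe sets did). Olfr921 was the 1 member with an unadjusted p under 0.05, which 650 of 22206 probe sets had. The samples are the same as in the comparisons above, so the change is no separate evidence. With values under background raised to the floor, the median was 0.49, Olfr921 was at 0.49, Olfr910 at 0.72 and Olfr912 at 0.20, and Olfr920 turned to -0.060, the one member whose sign changed.

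**Figure D3:**
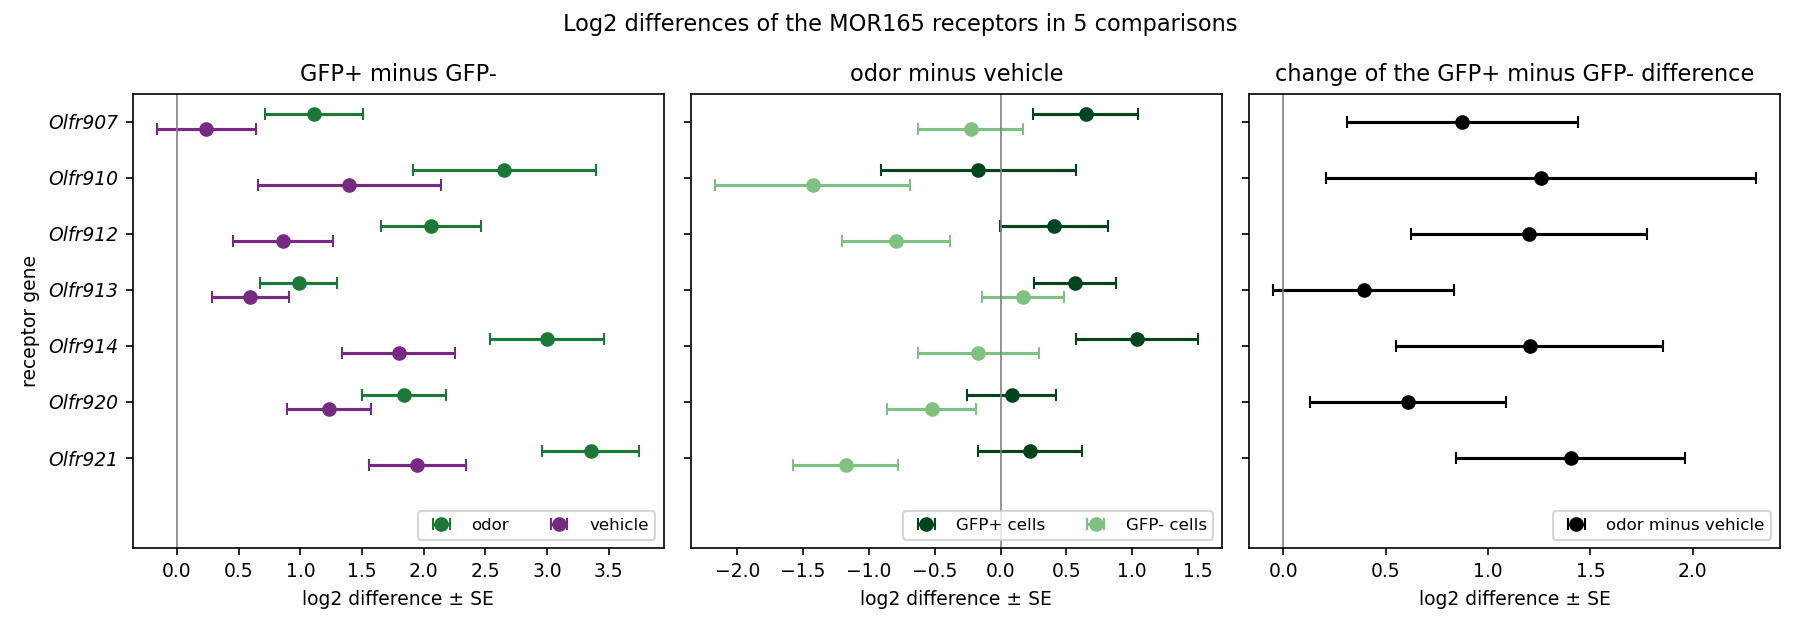
Log2 differences with standard errors (horizontal axes) of the 7 receptors (vertical axis) for GFP+ minus GFP- in odor and vehicle, odor minus vehicle in GFP+ and GFP- cells, and the change of the first difference with odor. As deposited, all 7 differences between fractions are positive, from 0.99 to 3.35 in odor and from 0.24 to 1.95 in vehicle. Over all probe sets 64.6% are positive in each treatment.

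The 4 group means were put in order for each member. Such orders were not counted over all probe sets, so nothing is read from how many members share one. Both GFP+ means lay above both GFP- means for all 7 as deposited, and for 6, all but Olfr912, with values raised to the floor. The highest mean was odor GFP+ for 6 of 7, and vehicle GFP+ for Olfr910. The lowest was odor GFP- for 6 of 7 as deposited, and vehicle GFP- for Olfr913. Raised to the floor, the lowest was odor GFP- for 4 of 7, since Olfr912 and Olfr920 then had vehicle GFP- lowest. Their raised GFP- means are floors of the arrays, except for 1 array of Olfr920, so that order does not describe the genes. Of the 21 pairs of neighbours in these orders, 19 had overlapping ranges, and 8 had a gap larger than the larger SD of the pair. The exceptions to the overlap were vehicle GFP+ against vehicle GFP- for Olfr920 and Olfr921. Of the 8 larger gaps, 4 were between odor and vehicle of the same fraction, namely Olfr907 and Olfr913 in GFP+ and Olfr912 and Olfr921 in GFP- samples, and the ranges of each of these 4 pairs overlapped.

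From array to array, some pairs of members deviated in the same direction and others in opposite directions. After each group's mean was removed, Pearson r between pairs of members over the 16 arrays was positive in 13 of 21 pairs, with a median of 0.11. Arrays of a pool share mice, and all values share each array's scaling, so these are descriptions without a test. The lowest was -0.43, between Olfr913 and Olfr920, and the highest 0.80, between Olfr910 and Olfr912. Olfr912 was above background on 3 of the 16 arrays, so the highest value rests mostly on readings under the floor. Olfr920 was above it on 8 and Olfr921 on 11. The lowest value and all other pairs with any of these members thus rest in part on such readings. Among Olfr907, Olfr910, Olfr913 and Olfr914, each above background on 15 or 16 arrays, r ran from -0.17 to 0.41. Of the 21 pairs, 7 had r between -0.2 and 0.2 and 8 had r over 0.3 in size. Olfr910 also carried pool to pool variation into both fractions, with r = 0.75 between the GFP+ and GFP- deviations of the 8 pools, while Olfr914 had r = -0.55. The probe sequences were not used here, and whether related members share probe targets was not tested.

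**Figure D4:**
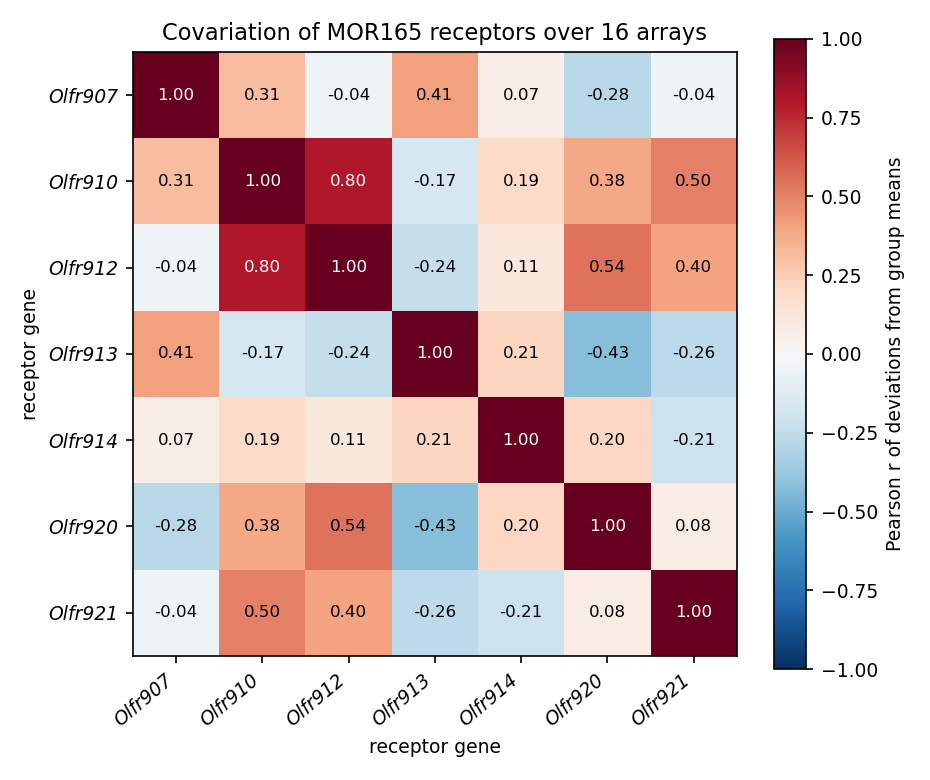
Pearson r between pairs of the 7 receptors over 16 arrays after removal of group means, as a coloured matrix with genes on both axes. Olfr910 with Olfr912 is highest at 0.80, and the 21 pairs hold both signs, with a median of 0.11.

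In RefSeq order on chromosome 9, the members run Olfr907, Olfr910, Olfr912, Olfr913, Olfr914, Olfr920 and Olfr921, with 10 other genes between the outermost. Olfr910 and Olfr912 lie near each other, and Olfr920 and Olfr921 are next to each other beyond the non-receptor gene Vwa5a. RefSeq windows of 250 bases before to 50 bases after the annotated start (assembly GRCm38.p6) matched 6 of 7 members, all but Olfr907, and all 6 lie on the plus strand. The windows of the pair with the most similar sequence, Olfr910 and Olfr912, are printed with that of Olfr913, which shares a short run with them, to show how alike the first pair is. Capitals mark the run cctnaagag, which was chosen after reading these windows. They are Olfr910 at chr9:38537632-38537931, Olfr912 at chr9:38579994-38580293 and Olfr913 at chr9:38592553-38592852.
Olfr910: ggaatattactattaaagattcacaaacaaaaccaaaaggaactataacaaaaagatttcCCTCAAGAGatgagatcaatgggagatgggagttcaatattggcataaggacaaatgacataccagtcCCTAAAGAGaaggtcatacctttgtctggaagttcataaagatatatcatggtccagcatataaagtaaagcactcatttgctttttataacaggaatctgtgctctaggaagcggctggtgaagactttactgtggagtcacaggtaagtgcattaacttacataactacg
Olfr912: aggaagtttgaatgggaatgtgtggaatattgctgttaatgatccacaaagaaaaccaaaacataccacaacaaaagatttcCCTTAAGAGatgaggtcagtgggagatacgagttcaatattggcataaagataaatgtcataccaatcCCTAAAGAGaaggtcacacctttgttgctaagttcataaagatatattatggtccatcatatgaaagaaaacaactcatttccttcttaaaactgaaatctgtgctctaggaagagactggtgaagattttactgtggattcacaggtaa
Olfr913: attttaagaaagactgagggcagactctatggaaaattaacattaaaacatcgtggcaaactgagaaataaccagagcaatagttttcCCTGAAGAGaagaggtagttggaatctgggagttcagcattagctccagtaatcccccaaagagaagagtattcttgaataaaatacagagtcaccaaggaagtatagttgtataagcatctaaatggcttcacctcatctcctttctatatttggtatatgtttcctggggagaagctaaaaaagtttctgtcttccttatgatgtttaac

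The Olfr910 and Olfr912 windows were identical at 86.2% of 276 aligned bases in a global alignment, and the other 14 pairs of member windows at 57.7% to 68.8%. The run in capitals was present 2 times in Olfr910, 2 times in Olfr912 and 1 time in Olfr913. It is in 0.847% of 944 receptor windows and in 393 of all 32851 windows. The members with the run were thus neighbours in gene order. The core cccnnggg, bound by Olf/Ebf factors in receptor promoters, was in 0 of 6 member windows, 3.07% of receptor windows and 13.7% of all windows. The homeodomain core taatta was in 0 of 6 members, 18.6% of receptor windows and 5.29% of all windows, and taatga was in the windows of Olfr912 and Olfr921, 28.8% of receptor windows and 9.78% of all windows. Both strands were searched. For Olfr914 the annotated start falls on an ATG, so its window may be upstream of the coding sequence rather than of the transcript, and a window without a match says only that these letters are not in it.

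Olfr911-ps1, the other gene with a MOR165 synonym and a probe set, lies between Olfr907 and Olfr910 in gene order. RefSeq gives this gene both MOR165-1 and MOR166-1 as synonyms, so its family is not settled by name. It read 10.32, 8.79, 9.33 and 8.96 in odor GFP+ samples, against 6.73, 5.97, 6.09 and 5.52 in odor GFP- samples. In vehicle it read 10.07, 9.03, 9.15 and 8.51 in GFP+ samples, against 8.06, 6.54, 5.80 and 4.28 in GFP- samples. In each treatment 1 of 4 GFP- arrays was above background and the groups did not overlap. The difference was 3.27 ± 0.57 in odor and 3.02 ± 0.57 in vehicle (2.59 and 2.30 with arrays raised to the floor), and its change with odor was 0.24 ± 0.81. As deposited, that change was below those of all 7 members, the lowest of which was 0.39 for Olfr913. Raised to the floor, the change was 0.29, above only Olfr912 (0.20) and Olfr920 (-0.060) on the same footing. Both of these rest largely on arrays under background.

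The 4 receptors of other families that lie between the outermost members and have a probe set were mixed. Olfr919 (MOR171-23) was at least 2.42-fold higher in GFP+ than in GFP- cells in odor and at least 4.98-fold higher in vehicle, and was the 1 of the 4 that passed limma in each treatment. Olfr918 (MOR164-3) differed by 0.72 in odor and 0.90 in vehicle without passing, and Olfr916 (MOR168-1) by -1.20 and -0.79, also without passing. The change with odor was -1.08 ± 0.58 for Olfr919, -0.18 ± 0.57 for Olfr918 and -0.41 ± 0.78 for Olfr916 (SE), and none passed. All GFP- readings of Olfr919 were under background. Olfr917 was under background on every array.

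A list of genes around odorant receptor signalling, called transduction genes here, was also followed. Besides signalling genes downstream of the receptors, it holds Rtp1, Rtp2, Reep1, Ldb1, Lhx2 and Emx2. These act in receptor trafficking or in the choice of a receptor gene. Of 18 transduction genes, 3 (16.7%) were higher in odor GFP+ cells by limma, against 5.29% of all probe sets, with a list median of 0.32: the chloride channel gene Ano2 by 0.68 ± 0.18, and the phosphodiesterase genes Pde1c by 1.10 ± 0.18 and Pde4a by 0.82 ± 0.18. In vehicle 4 (22.2%) were higher, against 5.83% of all probe sets, with a median of 0.29, namely these and the adenylyl cyclase gene Adcy3 by 0.50 ± 0.14. None was lower in either treatment. Between odor and vehicle 0 of 18 passed limma in either fraction, and 0 had an unadjusted p under 0.05.

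For each member the genes of most similar pattern over the 16 arrays were sought among 19498 other named genes by Pearson r of log2 values, which holds both the differences between the 4 groups and the variation within them. For Olfr914 they were Olfr466 and Olfr1120 (r = 0.96 each), for Olfr921 Olfr1008 (0.95) and Olfr1443 (0.93), for Olfr912 Olfr1095 and Olfr491 (0.86 each), and for Olfr920 Olfr535 (0.91) and Fibin (0.89). For these 4 members, 7 of the 8 nearest genes outside the member list are odorant receptors of other families. For Olfr910 the nearest were the cell adhesion gene Cdh3 (0.90) and Olfr1377 (0.89). For Olfr913 they were the oxidase gene Nox1 (0.94) and 3110039M20Rik (0.91), and for Olfr907 the lipid flippase gene Atp8a2 (0.85) and the nuclear receptor gene Nr1i2 (0.84). Members were left out of this search. By the same measure Olfr910 and Olfr912 had r = 0.891 with each other. That is above the r of both genes named for Olfr912 and between the 2 named for Olfr910 (0.900 and 0.890).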

How the data were processed

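GFP+ and GFP- olfactory mucosa cells of 8 mouse pools were measured on 16 arrays. The authors deposited log2 signals per probe set. The submitters' processing notes name Affymetrix Expression Console; which version, how probes were summarised and which build was annotated is not given in the sources used here. Sample titles gave the groups and replicate numbers. Of 28846 rows, 6640 controls were left out and 22206 tested; a platform annotation named 19572. RefSeq (GRCm38.p6) gave synonyms, gene order and promoter windows.

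A model with 4 group means over all 16 arrays was fitted with R 4.3.3 and limma 3.58.1 (lmFit, eBayes), and p-values were adjusted by Benjamini-Hochberg over all probe sets, with a threshold of 0.05. The fit was tested on simulated data. Where all arrays of the dimmer group were under the floor, the fold is a bound: the brighter mean is set against the dimmer group's mean after each array was raised to its floor. No fold is given for Olfr912, whose GFP+ arrays were in part under the floor too. Figures used Python 3.11.15 and matplotlib 3.10.9.

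The named genes were all members, S100a5, Omp, other MOR165 genes, at most 4 of the receptors between members, and the 2 genes most like each member. A further rule, receptors with at least 60% protein identity to a member, was not used here because no protein table was at hand. The members and the gene lists were chosen with earlier results of these data known.

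Both fractions of a pool come from the same mice, by the titles. Their deviations from group means correlated at 0.425, 0.0749, 0.161 and 0.109 in odor pools and 0.352, 0.0136, 0.0516 and 0.0837 in vehicle pools 1 to 4 (consensus 0.171). Alternatives were arrays centred on medians, quantile normalization, a filter on the lowest 20% or 40% of probe sets, a trended robust prior, array weights, 3 replicate blocks, only the arrays compared, values raised to the floor, only named probe sets, and each pool left out. The number of arrays limits the precision.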

Additional observations from a re-analysis of the deposited data

Results flagged for a closer look

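Among 36 sets of 4 arrays of the named receptors, S100a5 and Omp, 1 held an array far from its group. Omp, a marker of mature olfactory neurons, read 19.19 in vehicle GFP+ replicate 3, while the nearest array of that group read 19.42 and the highest 19.45. The gap was 0.893 of the group's range, above Dixon's critical value for 4 samples. Chance alone would mark about 1 in 20 such sets.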

How the results depend on the processing

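The number of members called higher in odor was 5 to 7 over the other settings (6 as reported) and 4 to 6 when pools were left out. In vehicle 3 were called, with 2 to 5 over the other settings (5 with arrays centred on medians) and 1 to 3 when pools were left out (1 without vehicle replicate 2). With the pool as a fixed replicate block 6 members were called in odor and 4 in vehicle. With the pool as a fixed or random replicate block, Olfr907 passed limma in odor at an unchanged difference of 1.11. No member was called between odor and vehicle, or in the change, under any setting run.

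Centring moved the split of all calls from 35.6% to 83.2% higher in odor (8534 higher and 1724 lower) and from 37.2% to 83.7% in vehicle (8986 and 1750), and quantile normalization moved it to 48.0% and 49.0%. The cause was not tested. Of 18 transduction genes, 12 were called higher in odor and 14 in vehicle after centring, against 3 and 4 as reported, and 1 in vehicle without vehicle replicate 2 or 4. Over all probe sets, calls of higher signal were 1855 in odor and 1972 in vehicle with quantile normalization, against 1175 and 1295, and calls of lower signal 1095 and 1262 with values raised to the floor, against 2124 and 2189. The change was called for 2 probe sets, and for 0 with the pool as a fixed replicate block. Values raised to the floor moved the median of the members to 1.11 in odor, 0.61 in vehicle and 0.49 for the change. Olfr912 and Olfr920 then lost their odor calls (differences 0.32 and 0.55) and Olfr920 its vehicle call (0.61). In GFP- cells, raising to the floor also turned Olfr912 to 0.16 and Olfr920 to 0.15. The value of Olfr912 holds only the floors of the arrays, and that of Olfr920 does so but for 1 array. Raising also turned the change of Olfr920 to -0.060, and array weights turned Olfr920 in GFP+ cells to -0.14.

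Leaving out pools turned other values that were within about 1 standard error of 0. Olfr907 ran from -0.029 to 0.52 for the sort in vehicle and from -0.50 to 0.22 for odor in GFP- cells. For odor in GFP+ cells Olfr910 ran from -0.57 to 0.23, Olfr920 from -0.070 to 0.36 and Olfr921 from -0.19 to 0.56. For odor in GFP- cells Olfr913 ran from -0.076 to 0.36 and Olfr914 from -0.45 to 0.070. The change of Olfr911-ps1 ran from -0.091 to 0.65 and the sort difference of Omp in vehicle from -0.042 to 0.055. A fixed pool block could not be fitted for odor against vehicle, since each pool had 1 treatment.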
